A study of Homo sapiens with 27 samples.

Results

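The collagen gene family was followed in 2 breast cancer cell lines in which the transcription factor ZEB1 was silenced. The family was taken as 38 genes that encode collagen alpha chains, chosen by name from the 57165 genes of the count table, and all 38 were found there. COL17A1 was left out of the list. SUM159 and MDA-MB-231 are established human lines of triple negative breast cancer (TNBC), the first from a primary tumour and the second from a pleural effusion. The 27 RNA-seq libraries formed 9 groups of 3. In each line the wild type cells carried no vector. The No gRNA cells carried a lentiviral vector that expresses dCas9-KRAB, a Cas9 without cutting activity fused to a repressor domain, together with puromycin resistance but without a guide. The targeted cells carried the same vector with guides to the ZEB1 promoter. In SUM159 these were gRNA 4, with 1 guide, and All gRNA, with a pool of 4 guides. Transduced cells had been selected with puromycin at 1.25 µg/mL (SUM159) or 0.75 µg/mL (MDA-MB-231), so that vector and drug were shared by the No gRNA and targeted groups and were absent from the wild type. The study's methods call the replicates individual clones, and nothing shows further separate cultures, so that the p-values measure the spread between these libraries.

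For the 6 targeted MDA-MB-231 libraries the sample titles and the names of the count columns disagreed on which 3 carried gRNA 4 and which the pool. They are called set 1 (titles gRNA 4) and set 2 (titles with all 4 guides), and no guide is assigned to either. All MDA-MB-231 libraries came from sequencing run 2. The SUM159 libraries came from run 1, apart from 3 further wild type libraries of run 2, which stood far from the wild type of run 1 in several collagens. Line and run therefore cannot be told apart for the transduced groups. The study's methods also give the lines different media. SUM159 was grown with insulin and hydrocortisone, and MDA-MB-231 in DMEM, for which neither is listed. Culture medium therefore goes with line in every comparison of lines.

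Collagens are secreted or membrane-bound proteins in which alpha chains wind into a helix, and they form the scaffold of the extracellular matrix. Fibrillar chains (types I, II, III, V, XI, XXIV and XXVII) build cable-like fibrils. Type IV chains build the sheet of basement membranes, type VI chains build beaded microfibrils, and types VIII and X build hexagonal networks. FACIT collagens sit on the surface of fibrils, type VII anchors the basement membrane, type XIII, XXIII and XXV chains span the cell membrane, and the multiplexins XV and XVIII lie in basement membrane zones. In carcinomas most fibrillar collagen is laid down by fibroblasts, while tumour cells with mesenchymal features also transcribe some of these genes.

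Libraries held 15461200 to 21473757 estimated counts, and levels are given in CPM, the count of a gene scaled to the size of its library, here with library sizes set by the trimmed mean of M values (TMM) over all 27. ZEB1, the targeted gene, checked the labels. In SUM159 it lay between 70.8 and 84.0 CPM in the 9 libraries without guides and between 2.57 and 4.56 in gRNA 4, and All gRNA held 0.376 to 1.03. In MDA-MB-231 it lay between 65.6 and 74.1 CPM in wild type, between 104 and 122 in No gRNA, and between 3.71 and 5.74 in the 6 targeted libraries. Of the receptors that define TNBC, ESR1 and PGR had group means of at most 0.32 CPM, while ERBB2 had group means of 42.1 to 63.1. VIM and CD44, mesenchymal markers, were abundant in all groups, with means of 1321 to 4079 and 256 to 2398 CPM. CDH2, a further mesenchymal marker, had group means of 66.6 to 135 CPM in SUM159 but at most 1.24 in MDA-MB-231. The fibroblast markers LUM, FAP and THY1 had group means of at most 0.44 CPM in every group. The other fibroblast markers DCN and PDGFRA were present in SUM159, and they are taken up beside the fibrillar collagens.

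Part of the family was silent or near the counting limit. In each group 21 to 25 of the 38 genes lay above a mean of 3 counts per library. 4 genes (COL2A1, COL11A2, COL23A1 and COL26A1) had a mean of 3 counts or fewer per library in all 9 groups, 16 lay above that limit in all groups, and 18 in only some. 13 of the 38 stayed under 1 CPM in every group. COL1A2 belonged to these: its highest group mean was 0.269 CPM, although COL1A1, the chain it pairs with in type I collagen, reached 258 CPM. A mean of 3 counts was 0.147 CPM in the SUM159 wild type of run 1, 0.167 in MDA-MB-231 No gRNA and 0.174 in its wild type, and differences between groups that both lay below such levels were not detectable.

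**Figure D1:**
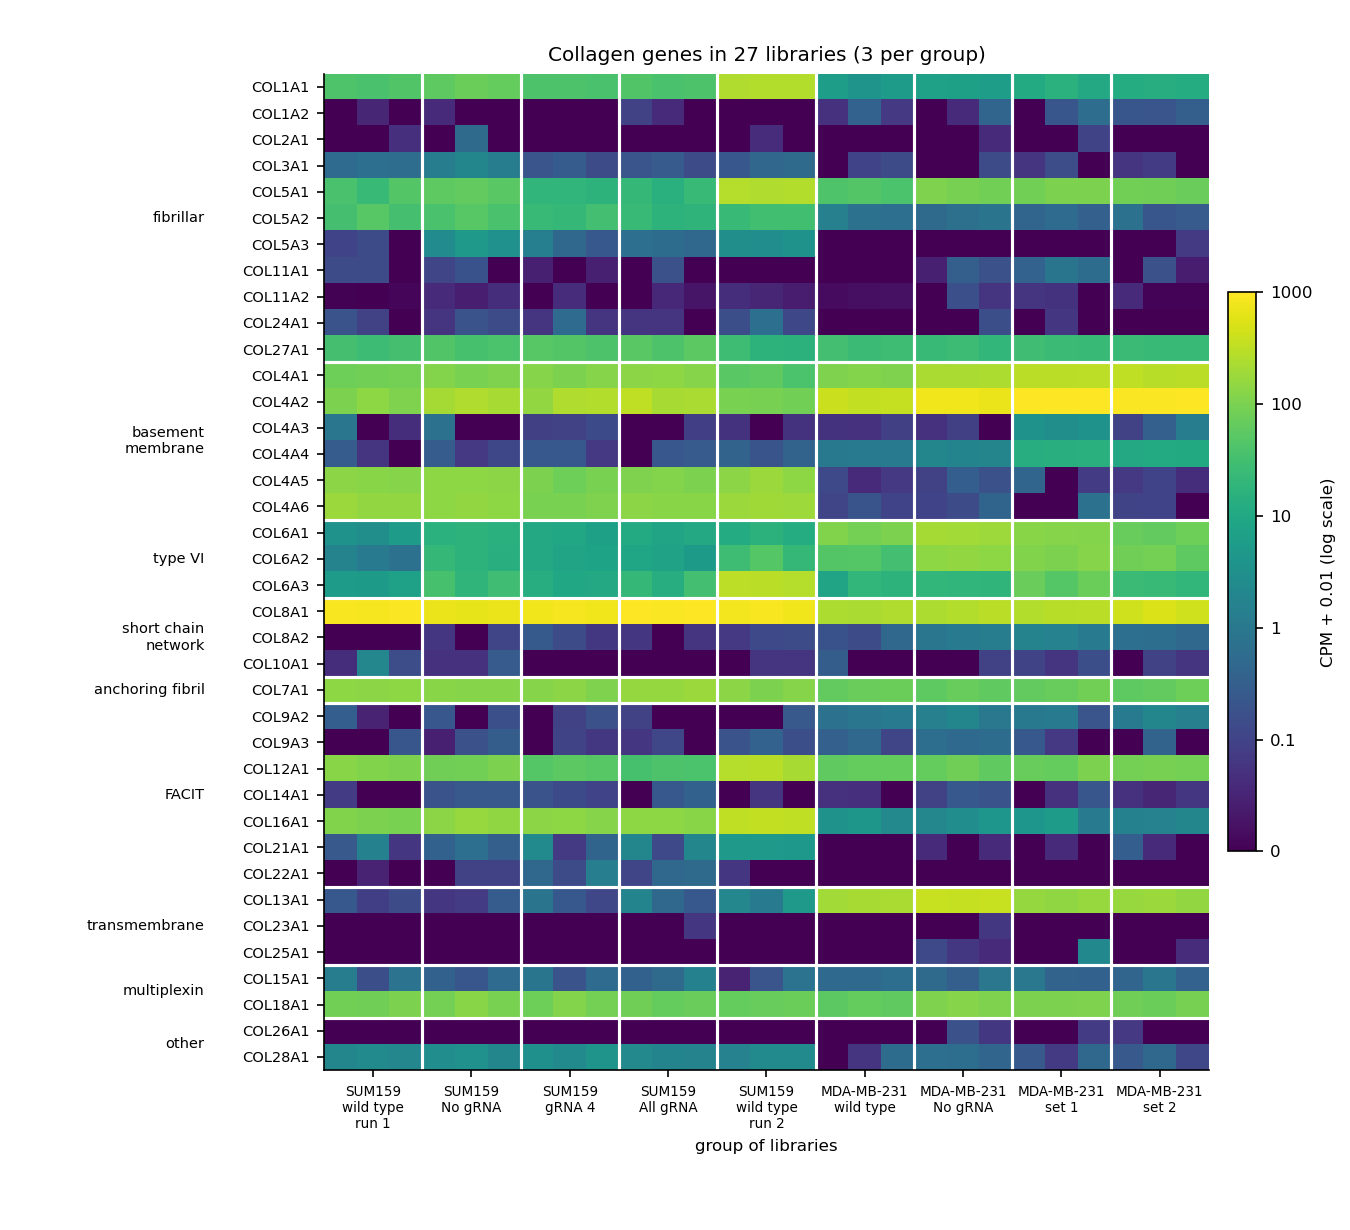
Level of each of the 38 collagen genes (rows, by class) in the 27 libraries (columns, 3 per group); colour is CPM + 0.01 on a log scale. COL8A1 is bright in every library, COL4A5 and COL4A6 are bright in the SUM159 libraries and dark in MDA-MB-231, and COL13A1 shows the opposite pattern.

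Per kilobase of exon, COL8A1 led the family in all 5 SUM159 groups, with 74.5 to 103 CPM per kb. COL8A1 encodes a short chain network collagen found beneath endothelium and in many tumours. In the SUM159 wild type of run 1 it was followed by COL4A6, COL7A1, COL16A1 and COL4A5, between 17.4 and 10.8 CPM per kb. In MDA-MB-231 the order was less steep and changed with the group. COL8A1 (25.7 CPM per kb), COL4A2 (19.3), COL13A1 (19.2) and COL6A1 (18.4) led the wild type, whereas COL4A2 led No gRNA with 39.0. With the longest transcript as the length in place of all exons, COL13A1 led the MDA-MB-231 wild type with 65.2 CPM per kb, so that the order among these genes depended on the length chosen.

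The question behind the targeted groups was which genes answer the loss of ZEB1. Each line was fitted with voom and limma over its 12 libraries, and 2 tests were read. TREAT asks whether a log2 fold change lies beyond 1 in size, and the moderated test asks whether it differs from 0. Both were adjusted over all genes at 0.05 by the Benjamini-Hochberg method, and "fell" and "rose" below refer to genes past at least the moderated test. A filter on low counts left 21 of the 38 genes in each of these fits. The other 17 gave no test.

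In SUM159 the collagens that moved with ZEB1 silencing mostly fell. No collagen passed TREAT in All gRNA or in gRNA 4, against 0.396% and 0.39% of all genes tested. 4 and 3 had an unadjusted TREAT p under 0.05. edgeR's glmTreat called 1 gene, COL3A1, in each comparison, and DESeq2 with the same threshold called 0. By the moderated test 9 collagens fell and 2 rose in All gRNA, and 10 fell and 0 rose in gRNA 4. Among all genes 4.89% fell and 5.93% rose in All gRNA, and 4.91% fell and 6.11% rose in gRNA 4. The median log2 fold change of the 21 collagens was -0.35 and -0.52, beside 0.00 over all genes in both. Both comparisons share the 3 No gRNA libraries.

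In MDA-MB-231 the changes ran in both directions. TREAT called COL4A3 and COL4A4 in set 1, both higher, against 1.47% of all genes. In set 2 it called COL4A4, higher, and COL6A1, lower, against 4.14%. By the moderated test 6 rose and 2 fell in set 1, where 20.4% of all genes rose and 17.3% fell. In set 2, 7 rose and 4 fell, where 27.3% rose and 25.1% fell. The median log2 fold change was 0.11 in set 1 and 0.07 in set 2. The share of collagens past the moderated test in MDA-MB-231 was near that of all genes.

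**Figure D2:**
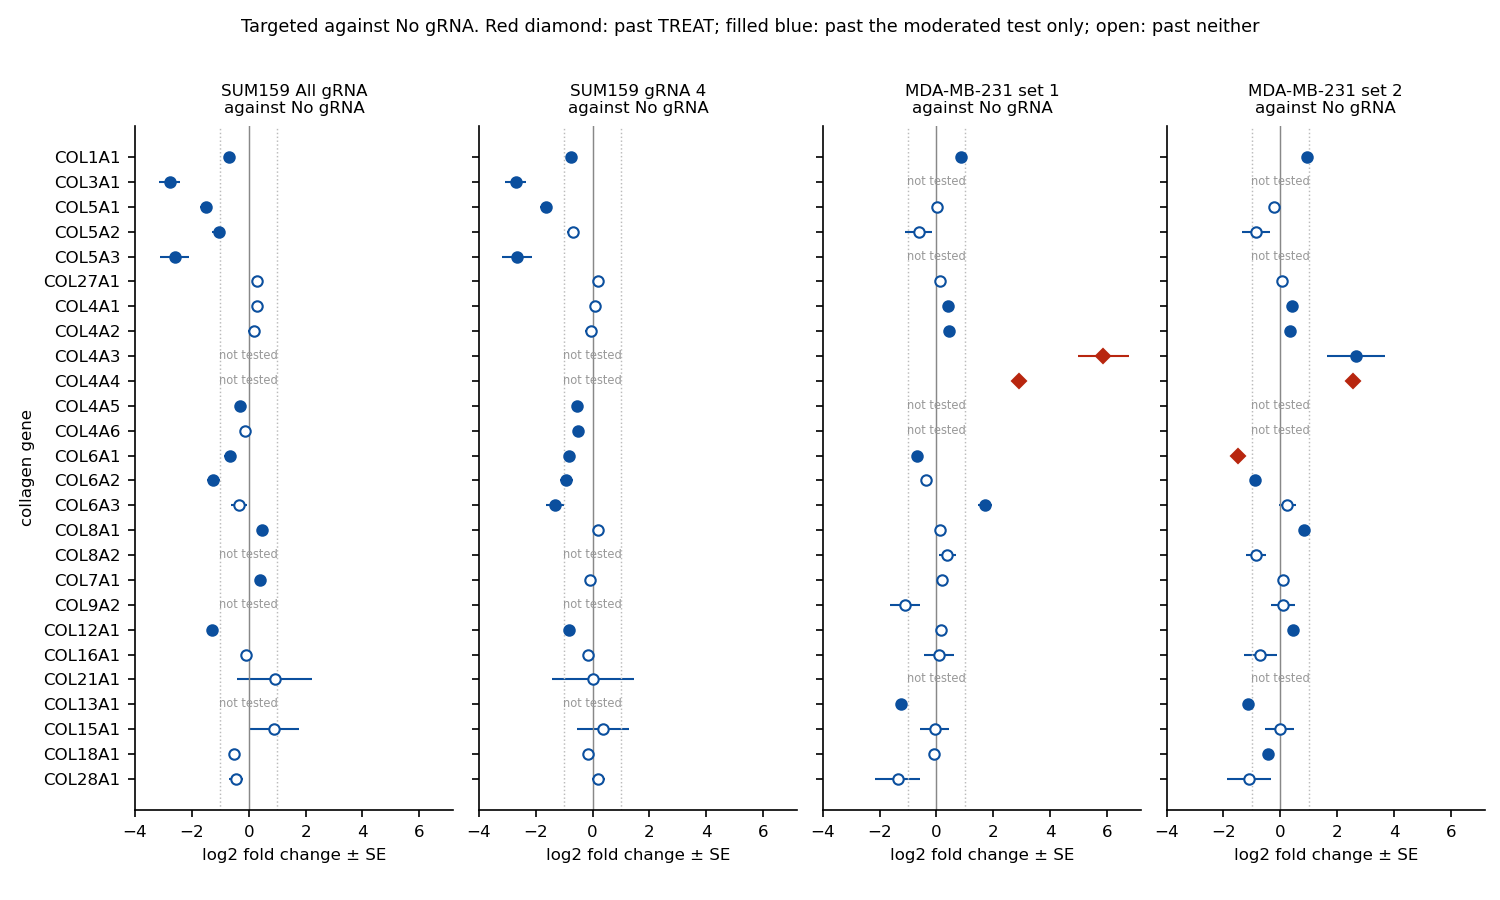
Log2 fold change ± standard error (x) of each collagen gene tested in at least 1 line (y), targeted against No gRNA, in 4 panels. Most filled points lie left of 0 in SUM159, down to -2.77 for COL3A1, and the diamonds past TREAT are COL4A3 and COL4A4 to the right and COL6A1 to the left in MDA-MB-231.

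Cells with the vector and drug selection alone were compared with wild type in the same way. In SUM159, No gRNA against the wild type of run 1 gave 3 collagens past TREAT, COL5A3, COL6A1 and COL6A2, all higher, against 1.53% of all genes. COL6A2 kept its call in all 6 fits that left out 1 library, COL5A3 in 3 and COL6A1 in 1. By the moderated test 10 were higher and 3 lower, where 21.0% and 21.9% of all genes were. In MDA-MB-231, COL6A2 alone passed TREAT, higher, against 3.6%, and lost the call without wild type replicate 3 or No gRNA replicate 2. The moderated test gave 9 higher and 1 lower, against 26.2% and 27.6%. The median log2 difference was 0.34 in SUM159 and 0.60 in MDA-MB-231, so that in both lines the No gRNA cells stood above wild type for the middle of the family. A collagen lower in targeted cells than in No gRNA could therefore still lie at or above its wild type level. Against both controls at once, 4 collagens were lower and 1 higher in SUM159 All gRNA, and 5 lower and 0 higher in gRNA 4. Of all genes, 2.98% were lower than both and 3.91% higher than both in All gRNA, and 2.90% and 3.90% in gRNA 4. In MDA-MB-231, 6 were higher and 1 lower than both controls in set 1, and 6 higher and 2 lower in set 2. There 14.1% and 9.48% of all genes were higher than both, and 10.8% and 6.81% lower.

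Of the fibrillar chains, 6 were tested in SUM159, and 5 fell in All gRNA and 4 in gRNA 4. COL5A1 encodes the chain that starts and limits the diameter of fibrils. It measured 56.5, 63.0 and 52.3 CPM in the SUM159 No gRNA libraries, 19.5, 19.2 and 16.8 in gRNA 4, and 21.0, 15.1 and 24.8 in All gRNA. All 6 targeted libraries lay below the 3 controls. The log2 fold change was -1.52 ± 0.21 (SE) in All gRNA (adjusted p = 0.0008, limma) and -1.64 ± 0.22 in gRNA 4 (adjusted p = 0.00048). Wild type of run 1 gave 37.0, 24.7 and 45.2 CPM, so that COL5A1 was lower than both controls in both targeted groups, although 1 wild type library fell inside the range of All gRNA.

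COL1A1, a chain of type I collagen, fell back into the range of the wild type. It stood at 57.0, 75.1 and 64.9 CPM in No gRNA, at 39.7, 40.5 and 37.1 in gRNA 4, and at 44.3, 37.3 and 39.3 in All gRNA. Wild type of run 1 held 41.7, 37.4 and 43.1, and the ranges of wild type and targeted cells overlapped. The log2 fold change against No gRNA was -0.70 ± 0.11 in All gRNA (adjusted p = 0.0013) and -0.75 ± 0.11 in gRNA 4 (adjusted p = 0.00078). Against wild type it was -0.03 ± 0.11 and -0.07 ± 0.11, with adjusted p of 0.87 and 0.63.

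COL3A1 and COL5A3 carried the widest differences of the class and few counts. COL3A1, the chain of type III collagen, had 1.26, 1.93 and 1.24 CPM in No gRNA and 0.561, 0.667 and 0.593 in wild type. The 6 targeted libraries lay between 0.128 and 0.280 CPM, a mean of 3.49 to 3.51 counts per library. These lay below all control libraries of run 1, with log2 fold changes of -2.77 ± 0.37 in All gRNA and -2.71 ± 0.37 in gRNA 4 (adjusted p = 0.00054 and 0.00056). COL5A3, a further type V chain, had 2.61, 5.07 and 3.37 CPM in No gRNA against 0.0899, 0.137 and 0 in wild type of run 1, a ratio of 47.4 with a 95% counting interval of 18.9 to 140. The targeted libraries spanned 0.225 to 1.42 CPM. COL5A3 thus fell by 2.60 (All gRNA) and 2.67 (gRNA 4) on the log2 scale and still lay between the controls.

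COL5A2, the partner of COL5A1, fell in All gRNA (log2 fold change -1.06 ± 0.22, adjusted p = 0.009). In gRNA 4 the estimate was -0.70 ± 0.21 and missed the threshold (adjusted p = 0.057). COL27A1, a cartilage-type fibrillar chain, passed the test in none of the 4 targeted comparisons, with 39.4 to 55.1 CPM in targeted and 35.4 to 43.9 in No gRNA SUM159 cells. COL1A2, COL2A1, COL11A1, COL11A2 and COL24A1 stayed under 1 CPM in all 27 libraries. The summed level of the 11 fibrillar genes was 209 ± 19.6 CPM (SD, n = 3) in No gRNA, 129 ± 4.52 in gRNA 4 and 130 ± 17.5 in All gRNA, beside 147 ± 8.16 in wild type of run 1.

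Fibroblast markers were taken as a list of 8 genes, of which 5 could be tested in SUM159. The summed level of the 8 listed markers was 186 to 195 CPM in No gRNA, 363 to 379 in gRNA 4 and 346 to 351 in All gRNA, and most of it was DCN and PDGFRA. LUM, FAP, THY1 and POSTN had group means of at most 0.75 CPM. By the moderated test 1 of the 5 rose in All gRNA, 2 rose in gRNA 4 and 0 fell. PDGFRA rose in both, from 113 to 126 CPM in No gRNA to 215 to 259 in the targeted libraries. In these bulk libraries a change in the number of cells of a type and a change in RNA per cell cannot be told apart. The part of these markers in the collagen values was not tested.

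MDA-MB-231 held a different set of fibrillar chains. COL5A1 was its main one, at 108, 94.5 and 85.6 CPM in No gRNA, 85.0, 101 and 104 in set 1, and 84.7, 83.6 and 73.6 in set 2. Set 1 overlapped No gRNA, while every set 2 library lay below every No gRNA library. The log2 fold changes of 0.02 ± 0.10 and -0.22 ± 0.10 passed neither test (adjusted p = 0.91 and 0.093, moderated test). COL1A1 was low, at 7.37, 6.86 and 6.24 CPM in No gRNA. It rose to 11.6, 15.6 and 10.6 in set 1 and to 12.6, 13.3 and 12.3 in set 2. Its log2 fold change was 0.88 ± 0.18 in set 1 and 0.92 ± 0.18 in set 2 (adjusted p = 0.0025 and 0.001), and all targeted libraries lay above all 6 controls. COL3A1 had at most 0.140 CPM and COL5A3 at most 0.0617 in any MDA-MB-231 library, and neither was tested there.

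**Figure D3:**
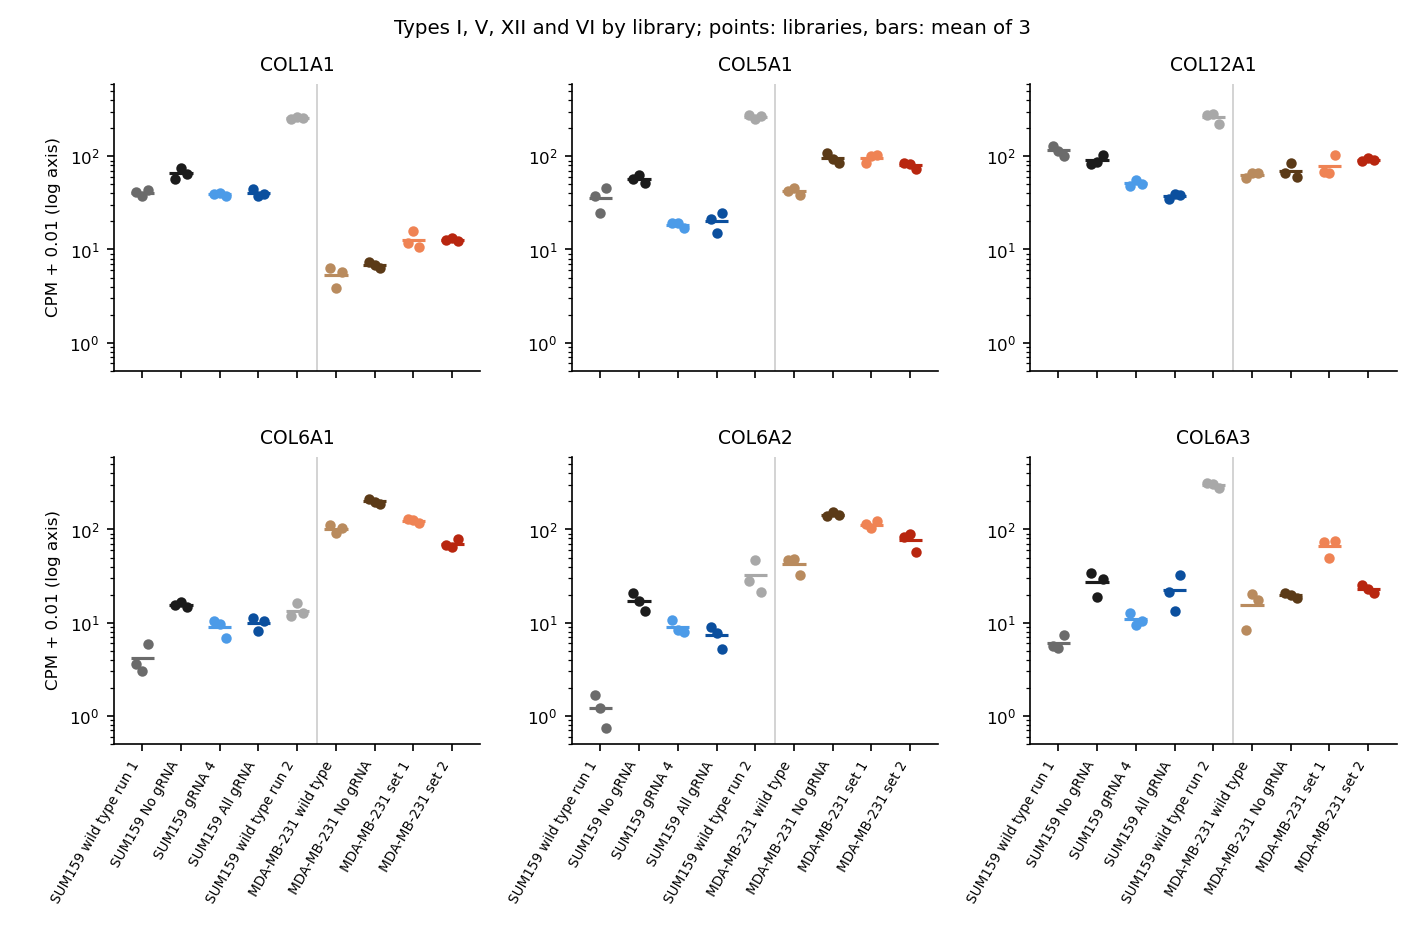
CPM + 0.01 (y, log axis) of COL1A1, COL5A1, COL12A1 and the type VI chains in each library (points) with the mean of 3 (bars), for the SUM159 groups left and the MDA-MB-231 groups right of the grey line. The SUM159 wild type of run 2 stands above that of run 1 in all 6 panels, with COL6A3 at 278 to 316 CPM against 5.30 to 7.32.

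Among the basement membrane chains COL4A4 rose past TREAT in both targeted sets of MDA-MB-231 and COL4A3 in set 1, and COL4A5 and COL4A6 were near zero in that line. The 6 type IV genes lie head to head in 3 pairs, COL4A1 with COL4A2 on chromosome 13, COL4A3 with COL4A4 on chromosome 2, and COL4A5 with COL4A6 on chromosome X, so that each pair shares the stretch between its start sites. The reference starts in RefSeq lay 127, 419 and 380 bp apart in these pairs. The sequences between the pairs are shown because both members of a pair passed the moderated test in the same direction, in the targeted MDA-MB-231 cells for the first 2 pairs and in SUM159 gRNA 4 for the last. They are in lower case on the plus strand of GRCh38. The COL4A1/COL4A2 stretch lies inside the annotated span of COL4A2. The COL4A4/COL4A3 stretch leaves out the part inside the annotated COL4A4 gene. The COL4A6/COL4A5 stretch holds only the 250 bases before the COL4A5 start.

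COL4A1/COL4A2, chr13:110307158-110307283: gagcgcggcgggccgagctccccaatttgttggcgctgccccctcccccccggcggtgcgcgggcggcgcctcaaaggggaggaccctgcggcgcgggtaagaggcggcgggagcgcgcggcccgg

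COL4A4/COL4A3, chr2:227164454-227164623: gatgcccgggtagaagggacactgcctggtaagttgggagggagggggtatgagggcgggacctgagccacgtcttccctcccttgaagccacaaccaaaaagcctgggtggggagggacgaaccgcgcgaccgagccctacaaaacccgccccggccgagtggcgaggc

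COL4A6/COL4A5, chrX:108439588-108439837: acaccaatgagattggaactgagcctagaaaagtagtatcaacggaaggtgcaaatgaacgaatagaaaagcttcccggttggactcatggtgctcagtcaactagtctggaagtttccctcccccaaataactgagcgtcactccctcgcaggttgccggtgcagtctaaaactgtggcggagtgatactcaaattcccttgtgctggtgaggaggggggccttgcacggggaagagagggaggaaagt

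Their GC content was 80.2%, 65.9% and 51.2%. ZEB1 is known to bind E-boxes of the form CAGGTG, which reads CACCTG on the other strand. None of the 3 stretches, as cut and printed above, held these letters. In RefSeq promoter windows of 300 bases, 250 before and 50 after the start, 28 of the 38 collagens had a window. 5 of them held the motif on either strand (17.9%: COL4A3, COL4A4, COL8A2, COL9A2 and COL16A1), beside 24.1% of 27305 genes. The COL4A3 and COL4A4 windows overlapped and held the same copy. It lies at chr2:227164410-227164415, upstream of both reference starts (first base at -210 from that of COL4A4 and -214 from that of COL4A3), in a first exon of COL4A4 transcripts annotated as untranslated. This copy therefore lies between the 2 reference starts, in the part left out of the COL4A4/COL4A3 stretch printed above. It is printed with the motif in capitals on the plus strand.

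COL4A3/COL4A4 motif, chr2:227164398-227164427: tggatccgcgccCACCTGcccctcaggcgc

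COL4A4 (chr2:227002714-227164453), a chain of the basement membranes of kidney, eye and ear, measured 1.96, 1.77 and 1.85 CPM in MDA-MB-231 No gRNA. It reached 12.8, 14.0 and 15.1 CPM in set 1 and 10.2, 11.3 and 11.1 in set 2. Wild type cells had 1.02, 1.21 and 1.09, so that no targeted library overlapped a control. The log2 fold change was 2.89 ± 0.15 in set 1 (TREAT adjusted p = 8.5e-06) and 2.56 ± 0.15 in set 2 (TREAT adjusted p = 2.6e-05). The call held in each of the 6 fits per set that left out 1 library. In SUM159 COL4A4 had at most 0.376 CPM in any library and gave no test.

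COL4A3 (chr2:227164624-227314792), the partner of COL4A4 in the same basement membranes, was at 0.0413, 0.0795 and 0 CPM in No gRNA. Set 1 held 3.68, 2.97 and 3.65 CPM, 84.9 times the No gRNA level with a 95% counting interval of 25.1 to 768, since No gRNA held 2.17 counts summed over its libraries. Set 2 held 0.0842, 0.331 and 1.31 CPM, a ratio of 13.7 (3.79 to 130), with its lowest library close to the highest control. The fitted log2 fold change was 5.87 ± 0.90 in set 1 (TREAT adjusted p = 0.0092). It lost that call without any one of the 3 No gRNA libraries (TREAT adjusted p between 0.0624 and 0.0917) and kept it without any one of set 1. In set 2 it was 2.67 ± 1.01 and passed only the moderated test (adjusted p = 0.044), a call lost in 5 of the 6 fits that left out 1 library. In SUM159 1 wild type library had 0.913 CPM and 1 No gRNA library 0.77, while the other 13 had at most 0.125. An exon of COL4A3 overlaps MFF-DT on the other strand. MFF-DT had group means of 0.36 to 2.48 CPM and was lower in set 1 (0.79) and set 2 (0.36) than in No gRNA (1.81), and whether reads were counted by strand is not given in the sources used here.

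COL4A1 and COL4A2 encode the 2 chains found in nearly every basement membrane. COL4A2 stood at 775, 765 and 714 CPM in MDA-MB-231 No gRNA, at 1036, 1009 and 993 in set 1, and at 925, 940 and 974 in set 2. COL4A1 stood at 233, 236 and 238 in No gRNA, at 306, 302 and 320 in set 1, and at 330, 289 and 299 in set 2. Both rose with little spread: by 0.44 ± 0.04 and 0.36 ± 0.04 on the log2 scale for COL4A2, and by 0.40 ± 0.05 in both sets for COL4A1. No targeted library overlapped the No gRNA libraries. The wild type was lower still, with 352 to 400 CPM of COL4A2 and 106 to 117 of COL4A1, and No gRNA exceeded it by 0.96 ± 0.05 and 1.04 ± 0.06. Beside these rises, the summed level of 5 epithelial markers was 810 to 841 CPM in No gRNA. It was 1414 to 1489 in set 1, 2764 to 2867 in set 2 and 1364 to 1400 in wild type. The sum in set 1 lay just above that in wild type, but single markers differed in direction. KRT8 was lower in set 1, with group means of 616 CPM in wild type and 242 in set 1. The other 4 were higher: EPCAM had 12.3 and 290 CPM, KRT19 163 and 266, KRT18 585 and 631, and CDH1 0.08 and 17.8. Against No gRNA, 4 of the 5 markers rose in set 1, 5 rose in set 2 and 0 fell. The part of these markers in the type IV values was not tested. In SUM159 neither COL4A1 nor COL4A2 passed the test in either targeted group, and COL4A2 was uneven among replicates, with 339, 217 and 231 CPM in All gRNA and 156, 255 and 264 in gRNA 4. The annotated spans of COL4A1 and COL4A2 overlap at their starts on opposite strands, but their exons do not.

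COL4A5 and COL4A6 were on in SUM159 and near zero in MDA-MB-231. COL4A5 measured 139, 139 and 135 CPM in SUM159 No gRNA, 105, 79.9 and 99.0 in gRNA 4 and 108, 120 and 103 in All gRNA. COL4A6 measured 142, 151 and 141 in No gRNA, 98.8, 99.4 and 107 in gRNA 4 and 134, 131 and 132 in All gRNA. In gRNA 4 both fell, by 0.56 and 0.52 on the log2 scale (adjusted p = 0.0021 and 0.00022), and both were also below wild type. In All gRNA COL4A5 fell by 0.32 (adjusted p = 0.038) and COL4A6 did not pass (-0.13 ± 0.06, adjusted p = 0.21). The COL4A5 call in All gRNA was lost in 5 of the 6 fits that left out 1 library. COL4A6 was higher in All gRNA than in gRNA 4 by 0.39 ± 0.06 (adjusted p = 0.015), a call lost in 3 of the 6 fits that left out 1 library.

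**Figure D4:**
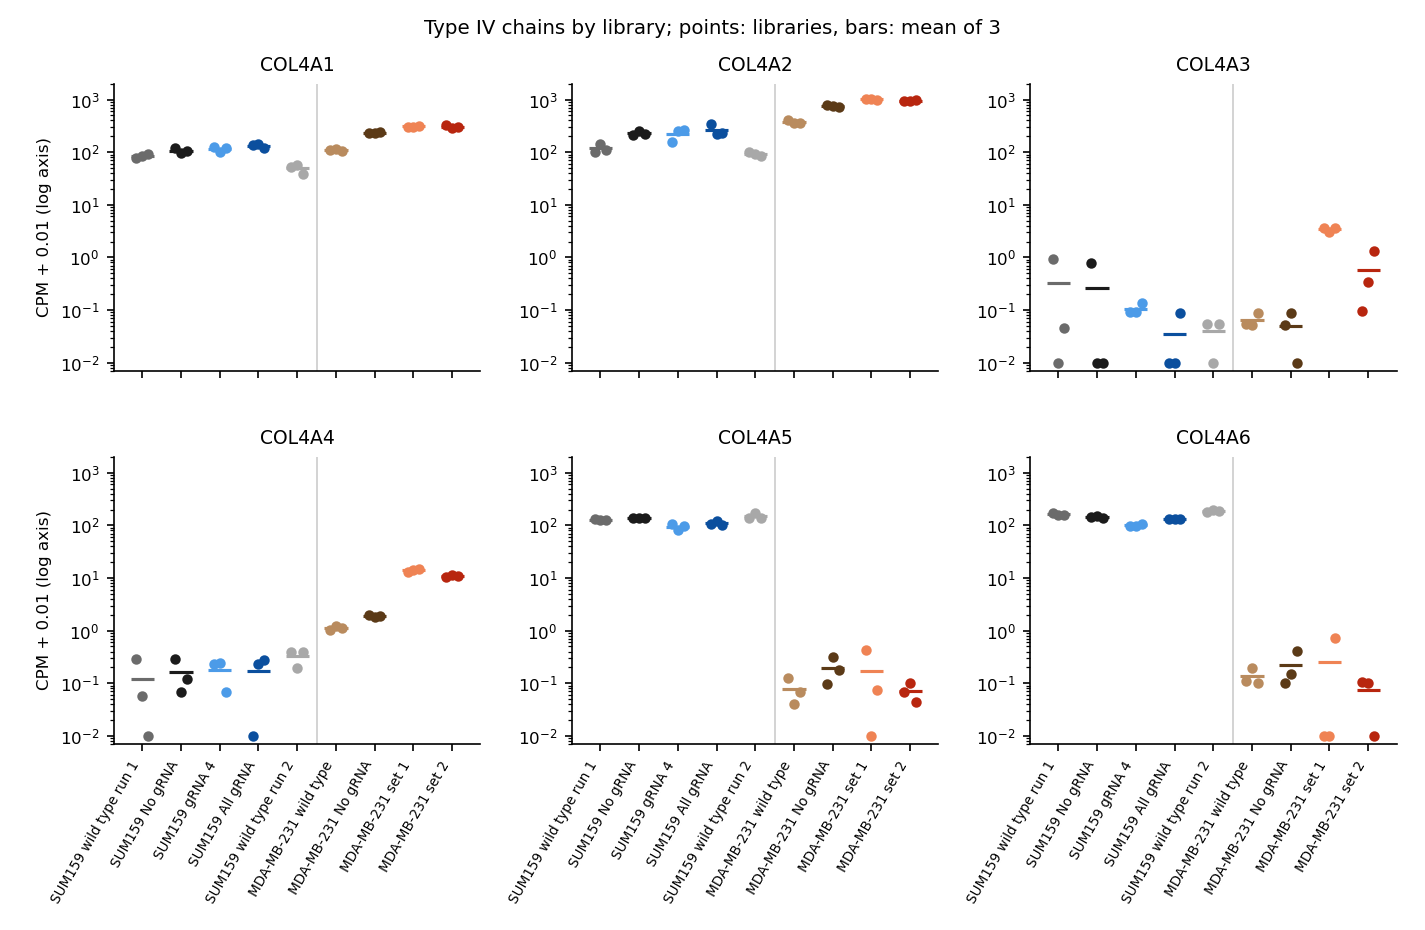
CPM + 0.01 (y, log axis) of the 6 type IV genes in each library (points) with the mean of 3 (bars). COL4A3 and COL4A4 lie at 2.97 to 3.68 and 12.8 to 15.1 CPM in set 1 of MDA-MB-231, above all its controls, and COL4A5 and COL4A6 stay under 1 CPM in that line.

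Type VI chains mostly fell with targeting in SUM159 and went apart in MDA-MB-231. COL6A1 (chr21:45981770-46005050) and COL6A2, neighbours on chromosome 21, encode the short chains of type VI, and COL6A3 encodes the long one. COL6A1 was at 211, 198 and 189 CPM in MDA-MB-231 No gRNA, at 131, 126 and 117 in set 1 and at 67.4, 64.3 and 78.8 in set 2. Wild type held 111, 91.9 and 102, so that set 1 lay between the controls and set 2 below both. The log2 fold change was -0.67 ± 0.07 in set 1 and -1.49 ± 0.08 in set 2. The latter passed TREAT (adjusted p = 0.0026) in all 6 fits that left out 1 library, and was past TREAT neither with set 1 and set 2 as one group nor with wild type as the control.

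COL6A2 also fell in set 2 (-0.90 ± 0.15, adjusted p = 0.00037), from 138, 153 and 141 CPM in No gRNA to 83.3, 90.0 and 57.8. Unlike COL6A1 it lay between the controls there, above wild type (46.7, 47.6 and 32.1 CPM) by 0.85 ± 0.19 (adjusted p = 0.0042). In set 1 it had 113, 103 and 122 CPM, and the estimate of -0.35 ± 0.14 missed the threshold (adjusted p = 0.064). COL6A3 moved apart from both. It rose from 20.9, 19.8 and 18.4 CPM to 73.2, 49.1 and 75.9 in set 1, by 1.72 ± 0.25 (adjusted p = 0.00023). In set 2 it had 25.4, 23.2 and 20.7 CPM (0.25 ± 0.28, adjusted p = 0.48). Markers of other cell types moved beside these values. The 8 fibroblast markers summed to 16.5 to 20.7 CPM in No gRNA, 8.61 to 10.1 in set 1 and 3.86 to 6.45 in set 2, beside 5.60 to 6.69 in wild type. 1 of the 3 that could be tested (PDGFRB) fell in set 1 and 2 in set 2 (PDGFRB past TREAT, and ACTA2), while LUM was at 0 in every MDA-MB-231 library. Of 3 endothelial markers, summing to at most 4.34 CPM, PECAM1 was tested and fell in set 2. Of 3 blood cell markers CD68 fell past TREAT in set 2, and their sum went from 162 to 174 CPM in No gRNA to 156 to 159 in set 1 and 64.4 to 66.9 in set 2, nearly all of it CD68. The other blood cell markers PTPRC and CD3E had group means of at most 0.19 and 0.02 CPM in MDA-MB-231. The part of these markers in the type VI values was not tested.

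In SUM159 of run 1 COL6A1 and COL6A2 were much lower than in MDA-MB-231, and No gRNA stood above wild type in all 3 chains. COL6A1 measured 3.56, 3.00 and 5.90 CPM in wild type of run 1, 15.4, 16.7 and 14.6 in No gRNA, 10.3, 9.70 and 6.91 in gRNA 4, and 11.1, 8.15 and 10.4 in All gRNA. COL6A2 measured 1.68, 1.22 and 0.725 in wild type, 21.0, 17.1 and 13.4 in No gRNA, 10.6, 8.44 and 7.85 in gRNA 4, and 9.01, 7.68 and 5.19 in All gRNA. Both fell with either guide set and stayed above wild type. The targeted libraries of the 2 genes overlapped neither control. COL6A3 measured 5.61, 5.30 and 7.32 in wild type and 34.4, 18.7 and 29.6 in No gRNA. It fell in gRNA 4 (12.8, 9.38 and 10.3 CPM, -1.32 ± 0.33, adjusted p = 0.024) and did not pass in All gRNA (21.3, 13.2 and 32.6 CPM, -0.35 ± 0.29, adjusted p = 0.49). The COL6A1 call in All gRNA was lost in all 6 fits that left out 1 library, and in gRNA 4 each of the 3 chains was lost in 3 or 4 of the 6. No fibrillar call of these comparisons was lost in such fits.

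Of the short chain networks and the anchoring fibril chain, COL8A1 and COL7A1 were expressed throughout. COL8A1 gave 729, 660 and 713 CPM in SUM159 No gRNA, 764, 857 and 796 in gRNA 4 and 1020, 929 and 959 in All gRNA. It rose in All gRNA by 0.47 ± 0.06 (adjusted p = 0.00027), and its range then overlapped that of wild type of run 1 (876, 859 and 943 CPM). In MDA-MB-231 it gave 241, 262 and 300 CPM in No gRNA and 262, 296 and 307 in set 1, which overlapped. Set 2 rose to 436, 547 and 439 CPM, by 0.85 ± 0.10 (adjusted p = 3e-05). COL7A1, which ties basement membrane to stroma, rose in SUM159 All gRNA from 131, 126 and 125 CPM to 158, 161 and 181 (0.39 ± 0.08, adjusted p = 0.0069) and was also above wild type. In gRNA 4 it had 122, 133 and 107 CPM, and in MDA-MB-231 it passed in neither set, with 57.7 to 87.6 CPM across No gRNA and targeted libraries. COL8A2 reached 1.75 CPM at most, and COL10A1 stayed under 0.30 CPM except for 1 wild type library of SUM159 run 1 at 2.01 CPM.

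Of the 7 FACIT collagens 3 were tested in each line, and only COL12A1 passed the moderated test in a targeted comparison. COL12A1 links fibrils to other matrix proteins. It fell from 83.4, 87.4 and 104 CPM in SUM159 No gRNA to 48.2, 55.3 and 50.5 in gRNA 4 and to 34.7, 39.7 and 38.3 in All gRNA. Wild type had 130, 115 and 101, and no targeted library overlapped a control. The log2 fold change was -1.28 ± 0.12 in All gRNA (adjusted p = 3.7e-05) and -0.84 ± 0.12 in gRNA 4 (adjusted p = 0.0006). In MDA-MB-231 COL12A1 gave 66.9, 84.2 and 59.4 CPM in No gRNA, 68.5, 66.7 and 103 in set 1 and 88.6, 96.0 and 91.9 in set 2. It rose in set 2 (0.43 ± 0.16, adjusted p = 0.036), a call lost in 5 of the 6 fits that left out 1 library. COL16A1 held 112, 103 and 100 CPM in SUM159 wild type of run 1 and 132, 168 and 145 in No gRNA. With guides it held 122 to 144 CPM, inside the No gRNA range or just under it, and passed in neither group. COL9A2, COL9A3, COL14A1 and COL22A1 stayed under 2 CPM in every library, and COL21A1 stayed under 5.

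COL13A1, a transmembrane collagen of cell adhesion sites, was high in MDA-MB-231 and low in SUM159. In MDA-MB-231 it had 206, 221 and 237 CPM in wild type, 385, 359 and 382 in No gRNA, 161, 151 and 166 in set 1 and 166, 181 and 155 in set 2. It fell by 1.23 and 1.14 on the log2 scale (SE 0.06 in each, adjusted p = 7e-08 and 4.7e-08), and all 6 targeted libraries were below all 6 controls. TREAT was not passed (adjusted p = 0.1 and 0.33). edgeR's glmTreat, DESeq2 and limma with library totals each called it in set 1. In SUM159 it reached 4.92 CPM at most. Of the other transmembrane chains, COL23A1 had at most 0.0559 CPM in any library, and COL25A1 had 2.19 CPM in 1 library of set 1 and at most 0.117 elsewhere.

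The multiplexin COL18A1, the precursor of endostatin, gave 110, 124 and 107 CPM in MDA-MB-231 No gRNA and fell in set 2 to 80.7, 74.9 and 96.1 (-0.42 ± 0.09, adjusted p = 0.0021), between No gRNA and the wild type (54.6, 65.0 and 60.8). Set 1 stayed at 105, 104 and 107. In SUM159 it gave 89.3, 132 and 99.1 CPM in No gRNA and did not pass, with 64.4 to 118 in the targeted libraries. An exon of COL18A1 overlaps SLC19A1 on the other strand, which had group means of 48.2 to 89.4 CPM in SUM159 and at most 0.41 in MDA-MB-231. COL15A1 reached 1.53 CPM at most, and COL28A1 lay between 1.61 and 3.84 CPM in SUM159 and at 0.652 or less in MDA-MB-231.

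**Figure D5:**
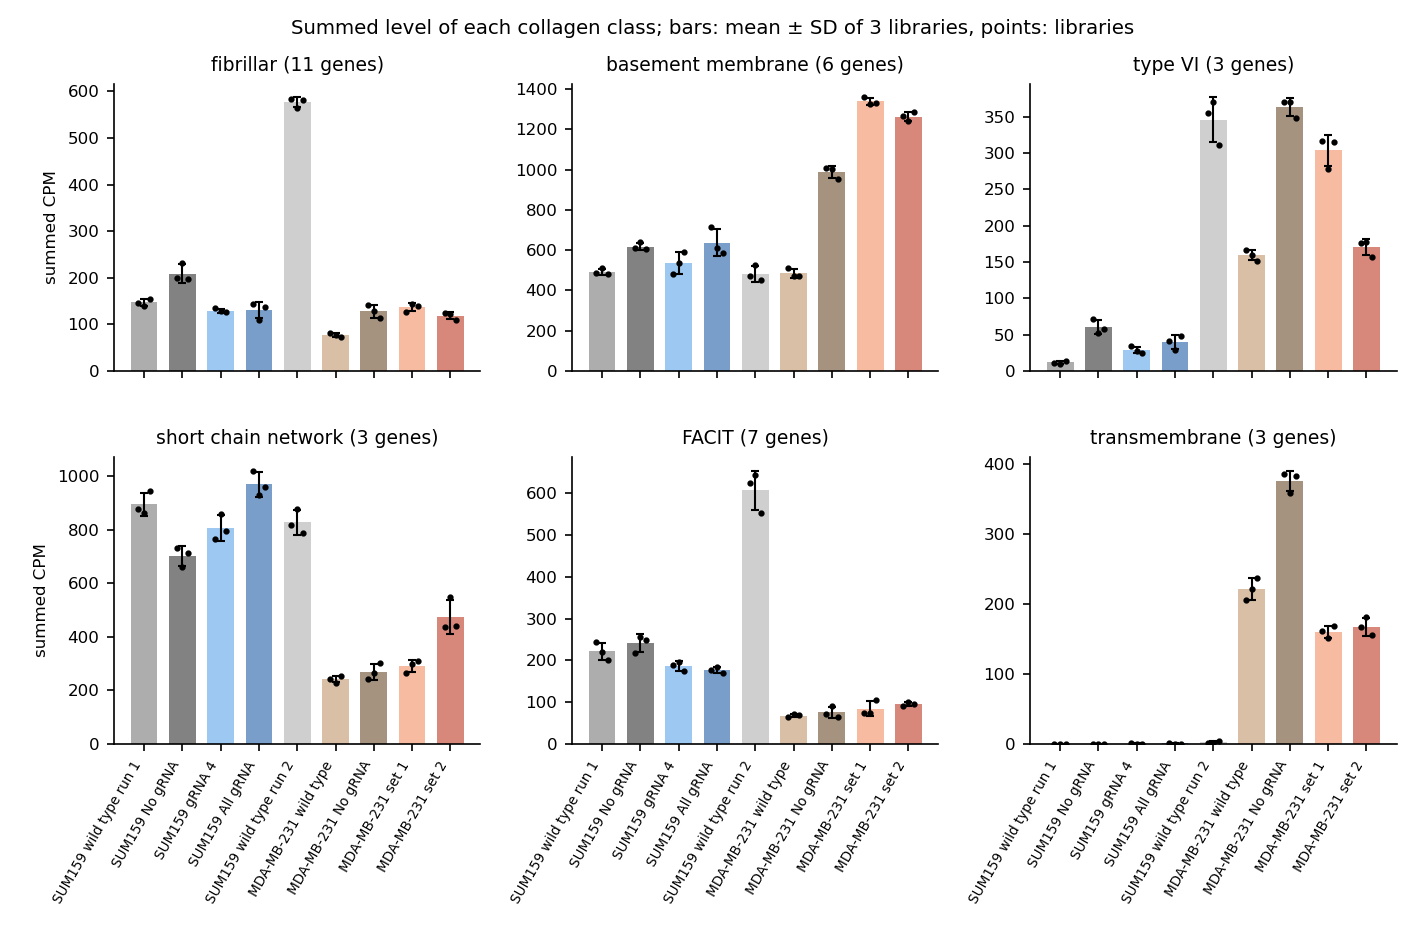
Summed CPM (y, from 0) of 6 collagen classes in each library (points) with the mean ± SD of 3 libraries (bars). In SUM159 the fibrillar sum lies at 196 to 231 CPM in No gRNA and at 110 to 143 in the targeted libraries, and in MDA-MB-231 the basement membrane sum lies at 954 to 1010 in No gRNA and at 1241 to 1359 in the targeted libraries.

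By class, the basement membrane chains of MDA-MB-231 summed to 485 ± 21.9 CPM (SD, n = 3) in untransduced cells and 989 ± 30.2 with the vector, and to 1340 ± 16.8 and 1264 ± 22.2 in set 1 and set 2. The type VI sums were 159 ± 7.06, 363 ± 12.7, 304 ± 21.7 and 170 ± 11.3 in that order. Over all 38 genes the No gRNA sum was 2377 ± 37.9, set 1 had 2494 ± 62.4, set 2 had 2442 ± 58.4, and wild type 1384 ± 15.7. With libraries scaled by their totals in place of TMM these sums were 2485, 2470, 2487 and 1473. The order of No gRNA, set 1 and set 2 thus depended on the scaling, and wild type stayed lowest. In SUM159 the total was 2066 ± 29.7 in No gRNA, 1908 ± 97.0 in gRNA 4 and 2197 ± 130 in All gRNA.

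Untreated cells of the 2 lines were compared within run 2, where line and culture medium cannot be told apart. SUM159 held more COL1A1, COL8A1, COL16A1, COL4A5 and COL4A6, and MDA-MB-231 more COL4A2, COL6A1 and COL13A1. Of 25 genes tested, TREAT called 12 higher and 5 lower in SUM159, against 11.8% and 16.9% of all genes. COL4A5 and COL4A6 had 138, 175 and 139 and 181, 198 and 186 CPM in SUM159 against at most 0.118 and 0.189 in MDA-MB-231. The MDA-MB-231 values rested on 3.54 and 6.53 counts summed over 3 libraries, so that the ratios of 2207 and 1499 had wide 95% counting intervals, 762 to 7170 and 678 to 3476. COL16A1 had 339, 352 and 328 CPM against 3.64, 4.44 and 2.24, and COL1A1 had 253, 261 and 260 against 6.39, 3.89 and 5.75. COL5A3 and COL21A1 were at 0 in the 3 MDA-MB-231 libraries, and with a floor of 3 counts per library SUM159 was at least 18.0-fold and 27.6-fold higher. The other genes higher in SUM159 were COL5A1, COL5A2, COL6A3, COL8A1, COL12A1 and COL28A1. COL13A1, COL6A1, COL4A2, COL4A4 and COL9A2 were lower, by 6.63, 2.96, 2.04, 1.81 and 3.86 on the log2 scale, the last 2 from few counts. Leaving out 1 library in turn, COL4A4 kept its call in 1 of 6 fits and COL9A2 in 4, and the other 15 genes kept theirs in all.

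The 2 sets of SUM159 wild type libraries differed. Run 2 against run 1 of the same labelled cells gave 6 of 22 collagens past TREAT, all higher in run 2, against 3.56% of all genes higher and 2.9% lower. They were COL1A1, COL5A1, COL5A3, COL6A2, COL6A3 and COL16A1. COL6A3 had 5.61, 5.30 and 7.32 CPM in run 1 and 316, 308 and 278 in run 2 (5.63 ± 0.31 on the log2 scale). COL1A1 had 41.7, 37.4 and 43.1 CPM in run 1 and 253, 261 and 260 in run 2 (2.66 ± 0.08). Culture and run cannot be told apart in this difference. With the wild type of run 1 in the comparison of lines, COL5A1 and COL6A3 turned to the other direction, at -0.32 and -1.30 on the log2 scale. COL4A5, COL4A6, COL13A1 and COL16A1 lay on the same side of MDA-MB-231 with either set.

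The 2 ways of targeting were compared directly. In SUM159, 0 collagens and 0.0% of all genes passed TREAT between All gRNA and gRNA 4 with limma, 0 had an unadjusted TREAT p under 0.05, and glmTreat and DESeq2 called 0. By the moderated test COL4A6, COL7A1 and COL8A1 were higher in All gRNA and 0 lower, where 0.561% of all genes were higher and 0.383% lower. The count was 0 to 2 when 1 library was left out, with 0 when it was gRNA 4 replicate 1. The COL8A1 call was lost in all 6 of these fits, COL4A6 in 3 and COL7A1 in 2. In MDA-MB-231, set 2 against set 1 gave 1 collagen past TREAT, COL4A3, lower in set 2 by 3.20 on the log2 scale (SE 0.56, adjusted p = 0.038), against 3.07% of all genes. It kept that call in 1 of the 6 fits that left out 1 library, the one without set 2 replicate 3, and glmTreat and DESeq2 called 0. The moderated test gave 7 lower and 1 higher (COL8A1), where 26.3% and 25.2% of all genes were. The 3 type VI chains were all lower in set 2, by 0.82 (COL6A1), 0.54 (COL6A2) and 1.46 (COL6A3).

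Whether the lines answered ZEB1 silencing differently was tested as an interaction over 24 libraries, with the 2 targeted groups of a line averaged. 26 collagens were tested. TREAT called 0 with limma, against 0.954% of all genes, while 9 had an unadjusted TREAT p under 0.05, glmTreat called COL1A1 and DESeq2 called 0. The moderated test gave 8 with a higher response in MDA-MB-231 and 1 with a lower one, where 12.4% and 13.0% of all genes did. COL1A1 differed by 1.60 ± 0.19 on the log2 scale (adjusted p = 3.5e-06), with a fall in SUM159 and a rise in MDA-MB-231, both against No gRNA. Against wild type of run 1, COL1A1 did not pass the moderated test in either targeted group of SUM159. COL5A1 differed by 1.45 ± 0.20 (adjusted p = 1.4e-05) and COL12A1 by 1.34 ± 0.18 (adjusted p = 1.2e-05). COL6A3 differed by 1.80 ± 0.37 (adjusted p = 0.0011). This averages unlike log2 fold changes within each line, 1.72 in set 1 and 0.25 in set 2, and -1.32 in gRNA 4 and -0.35 in All gRNA. COL3A1, COL5A3, COL4A3, COL4A4 and COL13A1 also passed, and each of them was near zero in 1 of the lines. In the 18 fits that left out 1 library the COL4A3 call was lost 14 times, COL5A3 4 times, COL13A1 2 times and COL4A4 once. Line, run, culture medium and puromycin dose coincide in this contrast.

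Genes that fold, export, process, cross-link, sense or cut collagen gave the setting. Of 50 such genes in the table, 42 were tested in SUM159 and 45 in MDA-MB-231. By the moderated test 4 were higher and 8 lower in SUM159 All gRNA, 3 and 12 in gRNA 4, 12 and 15 in set 1, and 8 and 21 in set 2. Of all genes, 5.93% were higher and 4.89% lower in All gRNA, 6.11% and 4.91% in gRNA 4, 20.4% and 17.3% in set 1, and 27.3% and 25.1% in set 2. TREAT called 0 in both SUM159 comparisons, with 2 at an unadjusted p under 0.05 in each. Of the 18 folding and modification enzymes, 1 rose and 3 fell in All gRNA, 1 and 6 in gRNA 4, 6 and 5 in set 1, and 4 and 7 in set 2. P3H2, a prolyl hydroxylase, was lower in set 1 (-1.46 ± 0.06) and FKBP10, a collagen chaperone, in set 2 (-2.08 ± 0.27). Of the 3 export genes none passed in the SUM159 targeted comparisons, while 1 rose in set 1 and 3 fell in set 2, with 0 past TREAT. In the interaction of line and targeting 1 of the 3 passed the moderated test, with a lower response in MDA-MB-231, and 0 passed TREAT. Of all genes 13.0% had a lower response there by the moderated test. For propeptide cleavage, ADAMTS14 passed TREAT in set 2, with a mean of 1.14 CPM in No gRNA and 0 in the 3 libraries of set 2. Among the cross-linking enzymes LOXL4 was lower in set 1 (-1.64 ± 0.08) and set 2 (-2.58 ± 0.10), LOX was lower in set 2 (-1.19 ± 0.03), and LOXL3 was higher in set 2 (1.93 ± 0.20). The integrin chain ITGA10, a collagen receptor, was lower in set 1 (-1.80 ± 0.16) and set 2 (-2.82 ± 0.20), and ITGA1 in set 2 (-1.44 ± 0.10). Of the collagen-cutting enzymes, MMP9 was higher in set 1 (2.27 ± 0.09), and MMP2 (-2.53 ± 0.29) and MMP1 (-1.66 ± 0.05) were lower in set 2.

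The same list was mostly higher in MDA-MB-231 No gRNA than in wild type, with 33 of 45 genes higher and 2 lower by the moderated test, where 26.2% of all genes were higher and 27.6% lower. LOX (1.72 ± 0.03), LOXL4 (1.64 ± 0.08), ITGA10 (1.62 ± 0.15) and MMP2 (2.51 ± 0.29) were among the 8 past TREAT, against 3.6% of all genes. In SUM159, 20 of 42 were higher and 4 lower, where 21.0% and 21.9% of all genes were. PCOLCE (3.48 ± 0.50), an enhancer of procollagen processing, was the TREAT call there, against 1.53%.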

How the data were processed

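RNA-seq had been run on 27 libraries of SUM159 and MDA-MB-231 cells, with 50 bp single-end reads. Per the labels and the study's methods, the authors quantified transcripts with Salmon and deposited estimated counts per gene (length-scaled TPM from tximport), on GRCh38 and without normalization between libraries. The Salmon version, annotation and strand setting are not given in the sources used here. Libraries were grouped by GEO's labels, every count column matched a library (0 unmapped), and totals ranged from 15461200 to 21473757 estimated counts. Of the identifiers, 56347 matched a gene symbol.

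The members, gene lists and tests were chosen with earlier results of these data known. Genes were kept by filterByExpr (minimum count 10), scaled by TMM and fitted with voom and limma (version 3.58.1, R 4.3.3) on unrounded counts, to which voom adds 0.5. Fits used the 12 libraries of a line, or the libraries of both lines or runs where these were compared. TREAT tested a log2 fold change beyond 1, and limma's moderated test a change from 0. Both were two-sided, with Benjamini-Hochberg adjustment over all genes and a threshold of 0.05. Alternatives were edgeR 4.0.16 and DESeq2 1.42.0 (rounded counts), other scalings, no filter, other groupings and leaving out each library in turn. The scripts were tested on simulated data. Intervals on ratios of counts are exact, at 95%, and cover counting error only, and against a group at 0 the floor was 3 counts per library. Replicates correlated between 0.988 and 0.993 and differed beyond counting noise.

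All 38 members are described. Values of single libraries are printed mainly where TREAT called a gene in a targeted comparison or where a gene was among the 5 highest per length in a group. For some of these genes a group is given as a range or left out. COL3A1, COL5A2, COL5A3, COL6A3, COL12A1 and COL18A1 values were added after they had been seen, as was the moderated test with 1 library left out. Of 52 listed genes of collagen handling, 50 were in the table. Gene coordinates come from GENCODE v44 and promoter windows from RefSeq (GRCh38.p14). Collagen protein sequences were not analysed here.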

Additional observations from a re-analysis of the deposited data

Results flagged for a closer look

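The response to ZEB1 targeting differed between the lines for 9 collagens by limma's moderated test of the interaction (both targeted groups averaged, MDA-MB-231 minus SUM159, adjusted over all genes). TREAT called none of them with limma, and 9 had an unadjusted TREAT p under 0.05. Line, sequencing run, culture medium and puromycin dose coincide in this contrast, so that these cannot be told apart. Leaving out 1 library gave 6 to 9 calls, and COL4A3 was lost in 14 of 18 such fits, COL5A3 in 4, COL13A1 in 2 and COL4A4 in 1. COL1A1 (1.60 on the log2 scale), COL5A1 (1.45), COL6A3 (1.80) and COL12A1 (1.34) had group means above 5 CPM in every group of this contrast. COL3A1 (3.19) and COL5A3 (3.01) had at most 0.140 CPM in any MDA-MB-231 library, and COL4A3 (4.51), COL4A4 (2.75) and COL13A1 (-2.94) had at most 1.83 CPM in any SUM159 library of this contrast, so that their fitted differences depend on values near zero.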

How the results depend on the processing

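Counts of collagens past TREAT depended most on the threshold. With limma's moderated test against 0 they became 11 (All gRNA), 10 (gRNA 4), 8 (set 1), 11 (set 2), 13 (SUM159 No gRNA against wild type), 10 (the same in MDA-MB-231), 13 (run 2 against run 1), 3 (All gRNA against gRNA 4), 8 (set 2 against set 1) and 9 (interaction). edgeR against 0 gave 10, 10, 8, 10, 13, 9, 13, 2, 8 and 8 in the same order. With edgeR's glmTreat, All gRNA, gRNA 4 and the interaction had 1 each, and set 2 against set 1 had 0, as it had with DESeq2 at a threshold, without the filter on low counts, with only the groups compared, and with the replicate number as a block. Same-numbered libraries did not deviate together (correlations of -0.10 to 0.04), so the numbers do not pair them. The replicate block changed 1 further count, All gRNA, to 1 (COL3A1). With wild type as the control the counts were 2 in All gRNA (COL6A2 and COL12A1), 1 in gRNA 4 (COL6A2), 6 in set 1 and 3 in set 2 (COL4A1, COL4A2 and COL4A4, without COL6A1). With set 1 and set 2 as one group 1 collagen was called (COL4A4) in place of 2. With SUM159 wild type of run 1 in the line comparison, COL5A1 (-0.32) and COL6A3 (-1.30) turned to the lower side. Leaving out 1 library gave 1 to 2 TREAT calls in set 1, 1 to 2 in SUM159 No gRNA against wild type, 0 to 1 in MDA-MB-231 No gRNA against wild type, 0 to 1 in set 2 against set 1, and 0 to 2 moderated calls (chosen after seeing the data) between All gRNA and gRNA 4, where the full data gave 3. Of 358 values of single collagens under these alternatives, 326 kept direction and side of the threshold, 30 lost the call and 2 reversed. These include the moderated test against 0, under which a TREAT call cannot be lost. The fits that left out 1 library enter as 2 values per call, both with the worst outcome. The share kept is therefore not a measure of robustness. Apart from a threshold's own construction, the causes were not tested. Below about 3 counts per library a ratio was known only within a wide counting interval.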
